A study of Mus musculus with 6 samples.

Results

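The genes described here are 35 genes of mitosis and the kinetochore, chosen by gene symbol from the 53342 genes of a single RNA-sequencing table. They comprise the cyclins of late cell cycle with their kinase, the proliferation antigen Mki67, topoisomerase, spindle checkpoint and kinetochore proteins, mitotic kinases, kinesin motors, spindle proteins and cytokinesis proteins. All 35 had counts in every sample and passed the filter on low counts. RNA came from dental pulp, the soft tissue inside the tooth, of male mice aged 3 months on a C57BL/6 background. The 3 control samples were wild-type (WT), and the 3 knockout samples (Mmp13-/-, labelled MMP13KO) came from mice homozygous for loss of the collagenase MMP13, with no tissue-restricted driver named. No treatment is named for either genotype. The titles of the WT samples name molars and those of the knockout samples name no tooth. The study's methods name incisors as the source of the RNA. The study described the sequenced samples as independent biological samples.

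Mitosis is the stage at which a cell parts its copied chromosomes into a pair of daughter cells. Cyclin-dependent kinase drives entry, the kinetochore joins each chromosome to spindle microtubules, the spindle checkpoint holds the cell until every chromosome is attached, and the anaphase-promoting complex then marks securin and cyclin B for breakdown. Most of these transcripts are made only from late S phase to mitosis, so in bulk tissue they serve as a readout of dividing cells, while resting odontoblasts and most adult pulp cells hold few of them. In bulk samples such as these, fewer cells of a type and less RNA per cell cannot be told apart.

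Mmp13, the targeted gene (chr9:7272514-7283331, GRCm38), was measured at 1009, 1072 and 826 normalized counts in WT (samples 2, 4 and 5, in that order throughout) against 8.85, 30.1 and 64.0 in Mmp13-/- (samples 1, 2 and 6, in that order). A normalized count is the estimated read count scaled to the mean library by TMM factors, and the genotypes were far apart in the direction of the labels. Library totals were 28442936 to 29980236 counts in WT and 21561420 to 26547121 in Mmp13-/-. Mmp13-/- samples stood apart from WT in a background measure. Odorant and vomeronasal receptor genes, which dental tissue is not known to use, took 17.8 to 20.8 CPM (counts scaled to a library of 1000000) in WT and 308, 355 and 1196 CPM in Mmp13-/- samples 1, 2 and 6, and the predicted gene Gm10800 alone took 30.5% of the counts of sample 6. Dspp and Dmp1, which encode dentin matrix proteins, were abundant in every sample. Skeletal muscle genes were also abundant, and the muscle gene Ttn held 5.19 to 5.95% of all counts in WT.

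Mitosis and kinetochore genes were higher in Mmp13-/- pulp than in WT pulp. Calls here needed a change of more than 2-fold and an adjusted p below 0.05 by the quasi-likelihood test of edgeR, with Benjamini-Hochberg correction across the 24534 genes tested. By that rule 24 of the 35 genes (68.6%) rose and 0 fell, where 20.4% of all genes tested rose and 9.68% fell. At any fold, 31 of the 35 rose and 1 fell, where 27.3% of all genes rose and 24.3% fell. The median log2 fold change was 1.52 over the 35 genes and 0.10 over all genes tested. In 32 of the 35 genes all 3 Mmp13-/- samples lay above all 3 WT samples, which held for 31.8% of all genes tested. The other 3 genes were Ube2c, with all Mmp13-/- samples below WT, and Plk1 and Incenp, whose genotypes overlapped. All 3 Mmp13-/- samples lay below all 3 WT samples in 7134 of the 24534 genes tested. Among the 24 called genes the ratio of mean normalized counts ran from 2.04 to 5.46, with a median of 3.32.

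**Figure D1:**
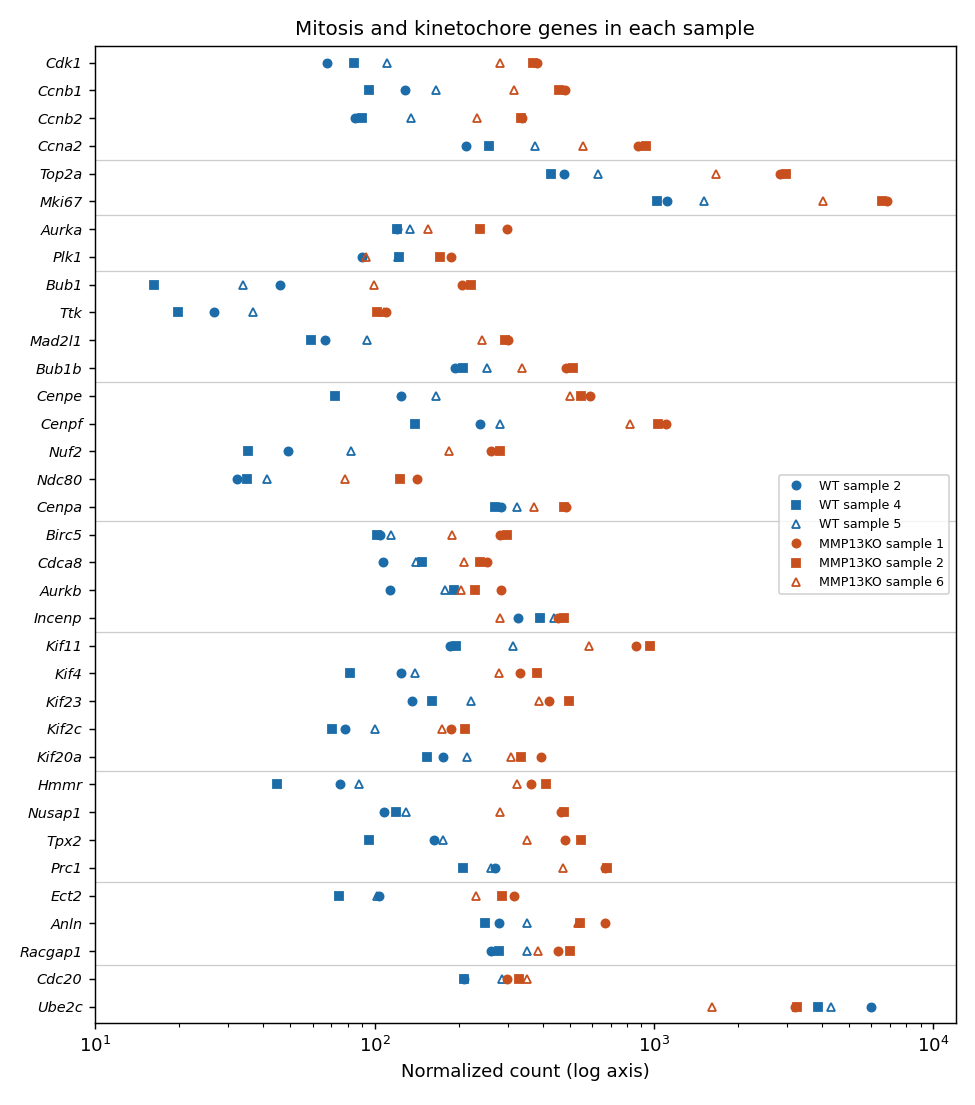
Normalized counts (log axis) of the 35 mitosis and kinetochore genes in the 3 WT and 3 Mmp13-/- samples, with 1 point per sample and rows grouped by role. Orange Mmp13-/- points lie to the right of every blue WT point in 32 rows, and Ube2c, in the bottom row, is the gene with the order turned round.

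Promoter sequences were examined because these genes moved together and are known to share control elements. RefSeq promoter windows on GRCm38.p6, running from 250 bases before to 50 bases after the start site, were found for 30 of the 35 genes. CCAAT boxes are bound by the factor NF-Y, and the cell cycle homology region, with the letters TTTGAA or TTTAAA, is bound by MuvB complexes that hold mitotic genes silent in resting cells. CCAAT or its complement ATTGG stood in 23 of the 30 windows (76.7%; 95% Wilson interval of counting error 59.1 to 88.2%) and in 41.1% of 27025 genes. TTTGAA or its complement TTCAAA stood in 23 of 30 windows and in 20.2% of all genes, and TTTAAA, which is its own complement, stood in 9 of 30 and in 14.9%. Both kinds of element were found together in 22 of 30 windows (73.3%) and in 12.2% of all genes. A match describes letters in a window and was not taken as a bound site. Shown are the windows of Hmmr (chr11:40733388-40733687, minus strand) and Plk1 (chr7:122159185-122159484, plus strand), the genes with the smallest and the largest adjusted p among those with a window that could be shown, written 5′ to 3′ on the gene's strand with the searched motifs in capitals.
Hmmr: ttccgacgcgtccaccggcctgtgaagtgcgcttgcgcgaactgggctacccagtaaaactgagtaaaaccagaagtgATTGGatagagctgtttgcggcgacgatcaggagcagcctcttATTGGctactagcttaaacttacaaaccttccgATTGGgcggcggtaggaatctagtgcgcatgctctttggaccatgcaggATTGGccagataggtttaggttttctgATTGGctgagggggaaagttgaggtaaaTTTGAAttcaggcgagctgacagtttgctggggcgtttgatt
Plk1: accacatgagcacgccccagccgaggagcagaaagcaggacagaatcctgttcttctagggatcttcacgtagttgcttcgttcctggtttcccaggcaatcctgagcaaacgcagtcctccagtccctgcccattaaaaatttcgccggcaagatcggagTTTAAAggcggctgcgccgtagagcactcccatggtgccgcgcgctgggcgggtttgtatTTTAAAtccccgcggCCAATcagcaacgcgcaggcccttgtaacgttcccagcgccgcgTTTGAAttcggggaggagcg
The Hmmr window held 5 CCAAT-type motifs and 1 TTTGAA. The Plk1 window held 1 CCAAT, 1 TTTGAA and 2 TTTAAA, so the gene that did not pass the test carried both kinds of element as well. Nuf2, Mad2l1 and Nusap1 rose over 2-fold and had neither kind in their windows.

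Cyclins and Cdk1, the engine of mitotic entry, rose in all 4 cases. This count and the counts by role that follow stand beside the 20.4% of all genes tested that rose over 2-fold. Cdk1 (chr10:69335146-69352938), the kinase itself, had 67.8, 84.6 and 110.5 normalized counts in WT against 381, 369 and 281 in Mmp13-/-. The genotypes did not overlap, and the log2 fold change was 1.97 ± 0.22 (SE; edgeR adjusted p = 0.000153). Ccnb1, a cyclin that activates Cdk1 at mitotic entry, went from 95.5 to 166 in WT to 316 to 479 in Mmp13-/-, a log2 fold change of 1.69. Ccnb2, another cyclin B gene, had 85.2 to 135 against 233 to 338 (1.55). Ccna2, the cyclin of S phase and G2, had 213 to 375 against 558 to 938 (1.49). Copies of members are listed in the table as well. Ccnb2-ps did not pass the test (log2 fold change -0.45), and with the GC correction it was called lower (-1.14, edgeR adjusted p = 0.023). Ccnb1-ps and Kif4-ps were too low for the filter and were not tested. Ccnb1-ps had 0.630, 0.627 and 1.498 normalized counts in WT against 6.66, 12.8 and 15.5 in Mmp13-/-. Kif4-ps had 0 in each WT sample against 10.4, 5.48 and 29.6 in Mmp13-/-. Background expected from exon length, by the receptor gene measure, equalled 52.0, 121 and 107% of the Kif4-ps counts in those knockout samples. For Ccnb1-ps it equalled 25.3, 16.1 and 63.1%. The part of background reads in either gene was not tested. Ccna2 shares 510 exon bases with Exosc9 on the opposite strand, which changed by 0.78.

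Mki67 and Top2a had the most counts of the genes that rose. Mki67 (chr7:135689784-135716361) encodes the Ki-67 antigen that coats mitotic chromosomes and is used as a stain for dividing cells. Its normalized counts were 1111, 1023 and 1505 in WT against 6843, 6522 and 4023 in Mmp13-/-, so every knockout sample was more than 2-fold above the highest WT sample. The log2 fold change was 2.26 ± 0.24 (SE; edgeR adjusted p = 0.000126). Top2a (chr11:98992943-99024189), the enzyme that untangles sister DNA, had 478, 429 and 628 in WT against 2821, 2973 and 1661 in Mmp13-/-. Those groups were separate as well, with a log2 fold change of 2.28 ± 0.24 (edgeR adjusted p = 0.000122). Without both genes and Ube2c, the summed level of the other 32 genes was 161 to 218 CPM in WT and 363 to 494 CPM in Mmp13-/-, a ratio of means of 2.47.

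Spindle checkpoint genes rose over 2-fold in 4 of 4 cases. Bub1 (chr2:127801122-127831865), a checkpoint kinase at the kinetochore, showed the largest log2 fold change of the 35 genes, 2.46 ± 0.41 (SE; edgeR adjusted p = 0.000912). Its normalized counts were 45.9, 16.3 and 33.9 in WT against 205, 221 and 99.1 in Mmp13-/-. WT counts this low carry a wide relative error, and its SE was the largest of the 35. Ttk, the kinase that starts the checkpoint signal, had 26.7, 19.7 and 36.7 in WT against 109, 102 and 108 in Mmp13-/-, a log2 fold change of 1.94. Mad2l1, which forms the inhibitor of the anaphase-promoting complex, had 59.1 to 93.8 against 241 to 299.97 (1.93). Bub1b, the checkpoint protein BubR1, had 194, 208 and 252 in WT against 483, 514 and 336 in Mmp13-/-. It passed the 2-fold limit narrowly at 1.03, and was under it with limma (0.95), with no filter (0.93) and without WT sample 2 (0.88), WT sample 4 (0.96), Mmp13-/- sample 1 (0.91) or Mmp13-/- sample 2 (0.86).

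Kinetochore genes rose over 2-fold in 4 of 5 cases. Cenpe, a motor that carries chromosomes to the spindle equator, had 124.6, 72.0 and 166 normalized counts in WT and 591, 548 and 501 in Mmp13-/-. Cenpf, a large protein of the outer kinetochore, had 238, 139 and 282 in WT against 1107, 1032 and 818 in Mmp13-/-. Both had a log2 fold change of 2.17, and in both WT sample 4 was the lowest. Nuf2 and Ndc80 are subunits of the complex that grips microtubules, and their log2 fold changes were 2.13 and 1.68. Ndc80 was the gene with the fewest reads per length, at 32.3, 34.96 and 41.3 in WT against 142, 124 and 78.4 in Mmp13-/-. Cenpa, the histone that marks the centromere, rose by less than 2-fold, from 284, 269.9 and 323 to 485, 477 and 371 (log2 fold change 0.61 ± 0.16 SE, edgeR adjusted p = 0.0107).

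The chromosomal passenger complex, which corrects faulty attachments, was mixed as counted, with a share of calls near that of all genes (20.4%). With the GC correction, under which 15.6% of all genes rose, 3 of its 4 subunits rose over 2-fold. Birc5, also called survivin, was the 1 of 4 subunits to rise over 2-fold, with 105, 102 and 114 in WT against 282, 298 and 189.9 in Mmp13-/- (log2 fold change 1.27). Cdca8, the subunit borealin, rose by 0.83. Aurkb, the kinase of the complex, had 113, 192 and 178 in WT against 284, 228 and 203 in Mmp13-/-. Those values did not overlap but did not pass the test (log2 fold change 0.57 ± 0.23 SE, edgeR adjusted p = 0.0622). Incenp, its scaffold, had 327, 392 and 438 in WT against 454, 478 and 281 in Mmp13-/-, and the lowest value of all was in a knockout sample. Its log2 fold change was 0.08 ± 0.21 (edgeR adjusted p = 0.785).

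Aurka and Plk1, a pair of kinases of the spindle poles and centrosomes, were under 2-fold as counted. Aurka, which matures the spindle poles, had 121, 121 and 133 in WT against 298, 238 and 155 in Mmp13-/- (log2 fold change 0.89 ± 0.24 SE, edgeR adjusted p = 0.0104). Plk1, which acts at centrosomes, kinetochores and the cleavage furrow, had 90.2, 122 and 122 in WT against 188, 171 and 93.3 in Mmp13-/-. Knockout sample 6 fell among the WT samples, and the log2 fold change of 0.45 ± 0.27 did not pass (edgeR adjusted p = 0.19). Without Mmp13-/- sample 6 the change of Plk1 was 0.70 and passed (edgeR adjusted p = 0.0267). Without Mmp13-/- sample 1, Aurka no longer passed.

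Kinesin motors rose over 2-fold in 4 of 5 cases. Kif11, the motor that pushes spindle poles apart, had 186, 196 and 313 normalized counts in WT and 865, 967 and 585 in Mmp13-/-, with a log2 fold change of 1.80. Kif4, a motor of chromosome arms and the midzone, followed at 1.52, Kif23 of the central spindle at 1.34, and Kif2c, which takes microtubules apart at centromeres, at 1.20. Kif20a, a motor of cytokinesis, rose by 0.93 (edgeR adjusted p = 0.00218) and so stayed just under the limit. It shares 29.3% of its exon bases with Cdc23 on the opposite strand, which changed by 0.15. Kif4 shares 15.1% with Pdzd11, which changed by 0.66 and did not pass the test.

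Spindle microtubule-associated genes rose over 2-fold in 4 of 4 cases. Hmmr (chr11:40701395-40733422), a spindle protein also known as a hyaluronan receptor, had 75.4, 44.8 and 88.0 normalized counts in WT and 362, 412 and 324 in Mmp13-/-. Every knockout value was more than 3-fold above the highest WT value, and the adjusted p of Hmmr was the smallest of the 35 genes (log2 fold change 2.40 ± 0.25 SE, edgeR adjusted p = 0.000111). Nusap1, which bundles microtubules around chromosomes, had 108 to 129 against 280.3 to 477 (1.78). Tpx2, which activates Aurora A on the spindle, had 95.3 to 175 against 350.3 to 546 (1.68). Prc1, the crosslinker of the midzone, had 207 to 270.1 against 472 to 679 (1.30). It shares 11.1% of its exon bases with Rccd1 on the opposite strand, which changed by -0.51 (edgeR adjusted p = 0.0119).

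Of the 3 cytokinesis genes, 1 rose over 2-fold, where 20.4% of all genes tested did, and 0 rose over 2-fold with the GC correction. Ect2, which activates RhoA at the furrow, had 104, 74.8 and 102 in WT against 314, 286 and 231 in Mmp13-/-, with a log2 fold change of 1.57 (edgeR adjusted p = 0.000275). Anln, the scaffold anillin of the contractile ring, had 279.6, 249 and 350.4 in WT against 670.2, 543 and 536 in Mmp13-/-. Its ratio of means, 1.99, lay just under the limit. Racgap1, the partner of Kif23, had 262, 278 and 351 against 455, 501 and 385, a log2 fold change of 0.59 (edgeR adjusted p = 0.0152).

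The anaphase-promoting complex was represented by Cdc20 and Ube2c, and neither was called. Cdc20, its activator at metaphase, had 209, 209 and 287 in WT against 298, 329 and 352 in Mmp13-/-. The groups were separate by a narrow margin, and the log2 fold change of 0.47 ± 0.18 was near the threshold (edgeR adjusted p = 0.0465). Without WT sample 2 or 4, or any 1 of the knockout samples, Cdc20 no longer passed.

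Ube2c, which attaches the first ubiquitin to the targets of the complex, ran against the other genes. Its normalized counts were 5958, 3864 and 4298 in WT against 3205, 3259 and 1618 in Mmp13-/-. All knockout samples were below all WT samples, and the log2 fold change was -0.80 ± 0.27 (SE; edgeR adjusted p = 0.0312). Without WT sample 2 it was -0.67 and did not pass (edgeR adjusted p = 0.088). Ube2c was also unlike the rest in its level per length of exon, 66.2 CPM per kilobase in WT, where the other 34 genes lay between 0.204 and 4.599. Ube2c (chr2:164769898-164778822, plus strand) overlaps Tnnc2 (chr2:164777161-164779967, minus strand), the gene of fast skeletal muscle troponin C, over 592 exon bases, or 22.8% of its exons. Tnnc2 was among the muscle genes that fell, with 46610.0, 30324 and 34553 normalized counts in WT and 20427, 21956 and 8973 in Mmp13-/- (log2 fold change -1.12, edgeR adjusted p = 0.0182). With the GC correction the change of Tnnc2 was -0.49 and did not pass (edgeR adjusted p = 0.242), and without Mmp13-/- sample 6 it was -0.81, under 2-fold. The counts of Ube2c were 12.8, 12.7 and 12.4% of those of Tnnc2 in WT against 15.7, 14.8 and 18.03% in Mmp13-/-. Strand use in the authors' counting is not given in the sources used here, and without strand the reads of both genes cannot be told apart where they overlap. The part of Tnnc2 reads in the value of Ube2c was not tested. Without Ube2c the summed level of the other 34 genes was 214 to 296 CPM in WT and 570.3 to 844 CPM in Mmp13-/-, a ratio of means of 3.07, and with it the ratio was 2.04.

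**Figure D2:**
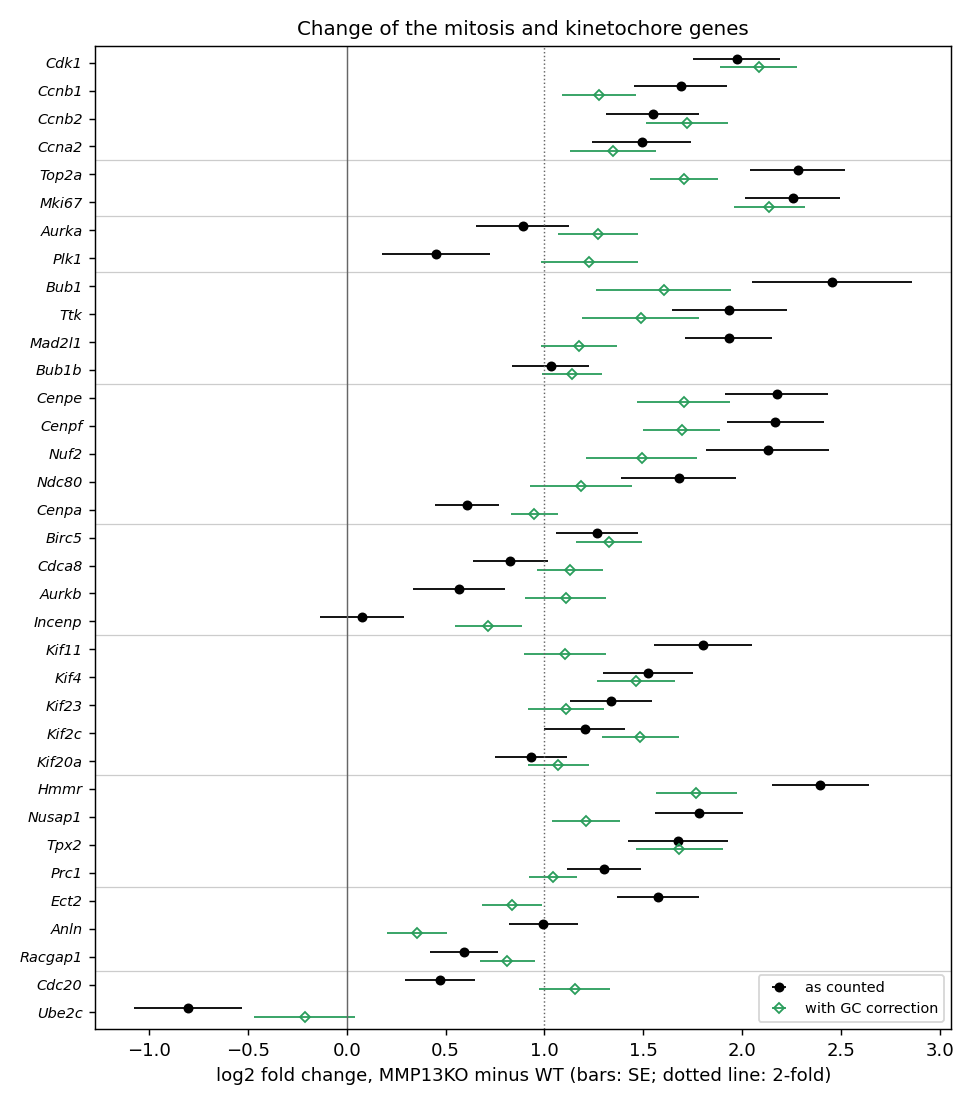
log2 fold changes (Mmp13-/- minus WT) of the 35 genes with their SE, as counted (black circles) and after a correction for GC content in each sample (open green diamonds), with rows grouped by role. Plk1, Aurkb, Aurka and Cdc20 moved past the dotted 2-fold line with the correction, Ect2 moved below it, Anln moved further below it, and Ube2c stayed the lowest gene.

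The size of the change followed the base composition of the genes. Across the 35 genes the log2 fold change and the GC content of the exons had a Pearson correlation of -0.82 and a Spearman correlation of -0.80. This describes genes measured in the same 6 libraries, which are not independent replicates, and over 16983 protein-coding genes tested the same values were -0.42 and -0.58. Of the 26 members with an exon GC content under 50%, 23 rose over 2-fold, where 29.6% of all genes with that composition did. Of the 9 members at or above 50% GC, Kif2c alone rose over 2-fold, where 9.92% of all such genes did. The median log2 fold change was 1.68 in the first set and 0.57 in the second, and over all genes tested it was 0.55 and -0.45 in the same ranges. Plk1 had the highest GC content of the members (56.1%) and Bub1 the lowest (40.6%).

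Each sample was corrected for GC content by a smooth curve. The curve was fitted on the more abundant genes only, whose log2 CPM averaged over 3, and was applied to less abundant genes as well. Low-count members such as Bub1, Ttk and Ndc80 were thus corrected by a curve drawn from more abundant genes. With the correction 29 of the 35 genes rose over 2-fold and 0 fell, where 15.6% of all genes rose. Of the 24 genes called before, 23 were called again, Ect2 dropped to 0.83, and 6 were added. The added genes were Aurka (1.27), Plk1 (1.23), Cdc20 (1.15), Cdca8 (1.13), Aurkb (1.11) and Kif20a (1.07). The SD of the log2 fold changes across the members shrank from 0.73 to 0.45, and the Pearson correlation with GC content went to -0.28. Cdk1 (2.08) and Mki67 (2.14) then had the largest changes in place of Bub1 (1.60) and Hmmr (1.77). Anln dropped to 0.36 and no longer passed at any fold (edgeR adjusted p = 0.10), and Ube2c stood at -0.21 (edgeR adjusted p = 0.541). Incenp, which overlapped between genotypes as counted, stood at 0.72 and passed (edgeR adjusted p = 0.0129). The trend with GC content lies between the genotypes, and its part in the size of each change cannot be told apart from that of genotype.

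**Figure D3:**
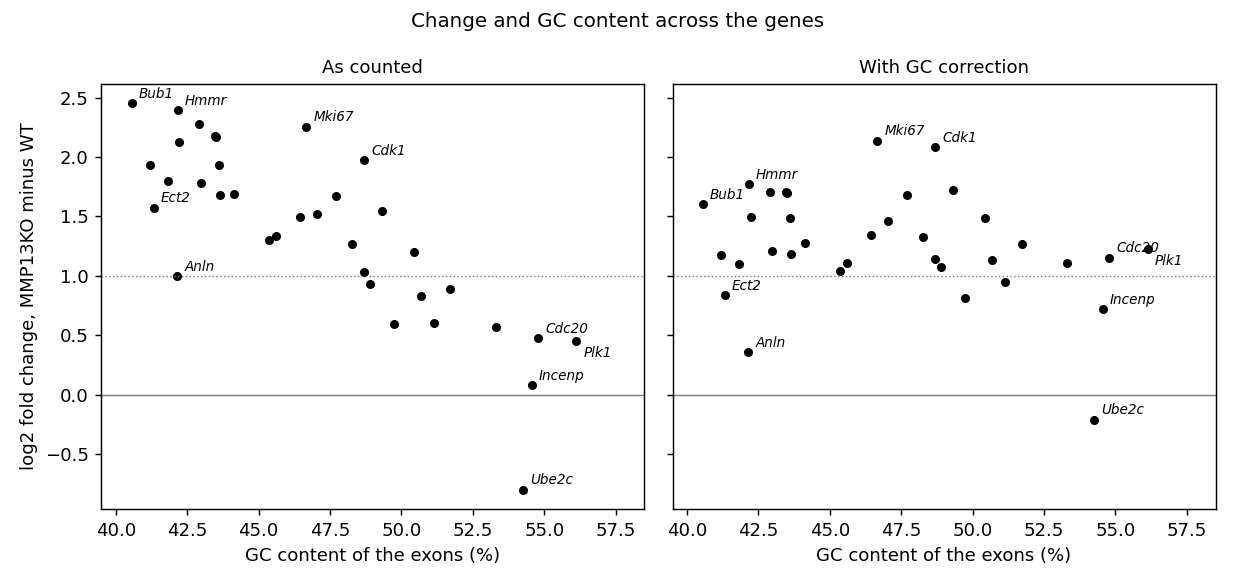
log2 fold change (Mmp13-/- minus WT) of the 35 genes against the GC content of their exons in percent, as counted (left) and with the GC correction (right), with 1 point per gene. As counted, the values descend from Bub1 at 40.6% GC to the GC-rich Plk1, Incenp and Ube2c (Pearson -0.82), and with the correction most genes lie near or above the dotted 2-fold line (Pearson -0.28).

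Background reads of the receptor gene level would add more to long genes with few counts. At that rate they amounted to at most 2.48% of the counts of any member in WT, 5.97% and 8.43% in Mmp13-/- samples 1 and 2, and a median of 12.9% in sample 6. Ndc80 was the most exposed, at 63.0% in sample 6. After this rate was subtracted in proportion to exon length, 26 of the 35 genes rose over 2-fold, where 16.2% of all genes did. With the subtraction and the GC correction together 28 rose, where 10.8% of all genes did. Ndc80 was then at 0.89 and no longer passed at any fold (edgeR adjusted p = 0.135).

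Samples of a genotype differed in step across the members. Mmp13-/- sample 6 was the lowest knockout sample in 33 of the 35 genes, where it was lowest in 46.6% of all genes tested. Its level was a median of 0.701 times the mean of samples 1 and 2. WT sample 5 was the highest WT sample in 28 of the 35 genes, where it was highest in 30.9% of all genes tested, and it was lowest in none of the 35. The median coefficient of variation within a genotype was 21.2% in WT and 19.2% in Mmp13-/-. Without Mmp13-/- sample 6, 27 of the 35 genes rose over 2-fold, where 19.7% of all genes did, and the median log2 fold change was 1.69.

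Per length of exon, the order of the members was much alike in both genotypes at its lower end, and Ube2c led in both. Ube2c, Cdc20 (4.599 CPM per kilobase) and Mki67 (4.41) led in WT, and Ube2c (37.9), Mki67 (21.1) and Top2a (10.1) led in Mmp13-/-. Ttk and Ndc80 were at the bottom in both, with 0.206 and 0.204 in WT against 0.791 and 0.646 in Mmp13-/-. Among the other members, Cdc20 went from 2nd to 6th, Incenp from 4th to 12th and Plk1 from 10th to 20th. Top2a went from 7th to 3rd and Kif11 from 17th to 7th. Of the 34 pairs of neighbours in this order, 30 in WT and 30 in Mmp13-/- differed by less than the larger SD of the pair over 3 samples. The median member stood at 1.13 CPM per kilobase in WT and 2.69 in Mmp13-/-.

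Other cell cycle genes were read from 7 lists that share no gene with the 35 and none with each other. Over the 190 genes of these lists, 73 rose over 2-fold and 3 fell (5 fell without WT sample 5 or Mmp13-/- sample 2), with a median log2 fold change of 0.79. As given above, 20.4% of all genes tested rose over 2-fold and 9.68% fell. Among other kinetochore and centromere genes 19 of 34 rose and 0 fell (median 1.16). Under the GC correction, where 15.6% of all genes rose, 15 of them rose (median 0.89). Condensin and cohesin genes rose in 12 of 24 cases and fell in 1 (median 1.14), and under the GC correction 8 rose and 1 fell (median 0.64). Esco2, which acetylates cohesin in S phase, had 20.8, 21.6 and 19.3 in WT against 206, 191 and 131 in Mmp13-/- (log2 fold change 3.11, edgeR adjusted p = 5.37e-05). Pttg1, the securin that guards cohesin until anaphase, was the gene that fell, from 407, 195 and 300 to 106, 148 and 105 (log2 fold change -1.32, edgeR adjusted p = 0.00295). Pttg1, like Ube2c, was lower in every knockout sample than in any WT sample, which held for 7134 of the 24534 genes tested. With the GC correction Ube2c stood at -0.21 and did not pass (edgeR adjusted p = 0.541).

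Other mitotic kinesins and spindle genes rose in 11 of 27 cases and fell in 0 (median 0.84), led by Depdc1a at 3.48. Under the GC correction 14 of them rose (median 1.08). DNA replication genes rose in 21 of 42 cases and fell in 0 (median 0.9996), led by Rpa3, a subunit of the single-strand DNA binding complex, at 2.54. Their count under the GC correction was 16 (median 0.85), so the order of the lists depended on that correction. Pcna, the sliding clamp of replication, had 471, 392 and 502 in WT against 1282, 1325 and 948 in Mmp13-/- (log2 fold change 1.38, edgeR adjusted p = 0.000221). Mitotic entry regulators and transcription factors rose in 5 of 24 cases and fell in 0 (median 0.62), a share close to the 20.4% of all genes. The count was 2 without WT sample 2, 3 with background subtraction and 9 with the GC correction, and Pbk, a kinase gene, had the largest change at 1.65. Foxm1, a transcription factor of mitotic genes, had 155, 172 and 177 in WT against 228, 276 and 244 in Mmp13-/-, a rise under 2-fold (0.57, edgeR adjusted p = 0.016). Mybl2, its partner on mitotic promoters, did not pass (0.54, edgeR adjusted p = 0.0652). With the GC correction both were over 2-fold, at 1.20 and 1.29.

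The lists furthest from the 35 genes were those of the anaphase-promoting complex and of G1. Subunits and regulators of the anaphase-promoting complex rose in 3 of 17 cases and fell in 0 (median 0.15), a share below the 20.4% of all genes, and in 2 to 5 cases over the alternatives. Anapc10, a substrate-binding subunit, was at 1.78. G1 cyclins, their kinases and Cdk inhibitors rose in 2 of 22 cases and fell in 2 (median 0.06), shares below and near those of all genes. Ccne1 and Ccne2, the cyclins of S phase entry, were at 1.52 and 1.51, though Ccne2 was at 0.06 with the GC correction. Cdkn1a, the inhibitor p21, had 1420.4, 1506 and 1577 in WT against 696, 528 and 715 in Mmp13-/-, a log2 fold change of -1.22 (edgeR adjusted p = 0.000235). Cdkn2b, the inhibitor p15, was at -1.16. With the GC correction both were under 2-fold, at -0.63 and -0.39. Ccnd1, the cyclin that answers growth signals, did not pass (-0.21, edgeR adjusted p = 0.327), and its sign was positive (0.30) with the GC correction.

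**Figure D4:**
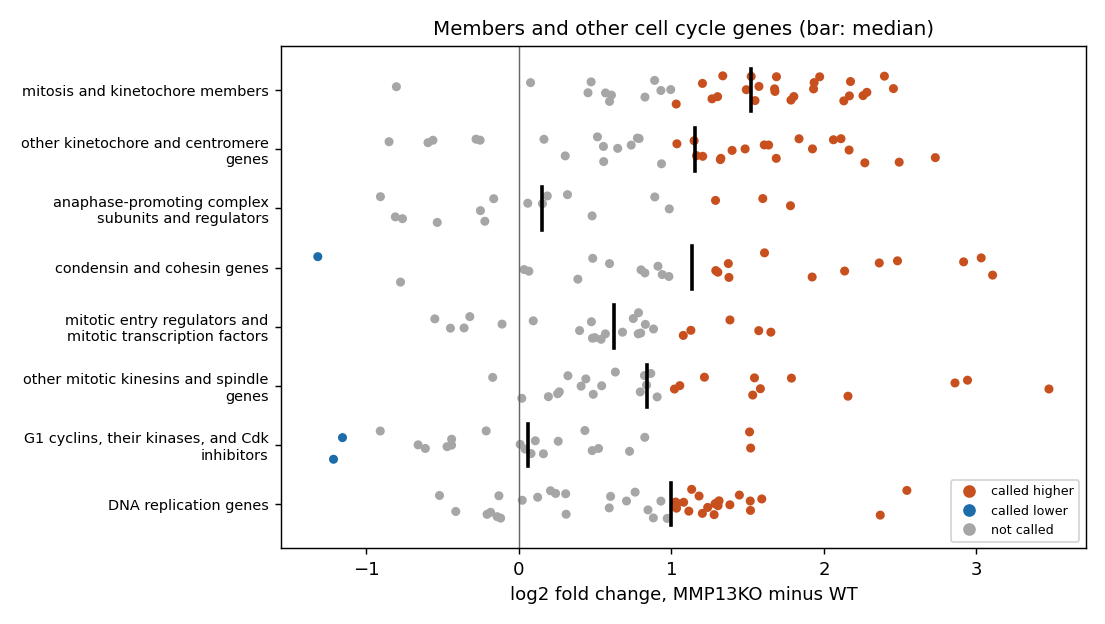
log2 fold changes (Mmp13-/- minus WT) of the 35 genes and of the genes of 7 other cell cycle lists, with 1 point per gene, spread vertically for visibility, and a black bar at each median. Orange points were called higher and blue points lower. As counted, the medians range from 1.52 for the 35 genes to 0.06 for G1 cyclins, their kinases and Cdk inhibitors.

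Marker lists of blood cell precursors, which divide in marrow, rose with the 35 genes, as did lists of T cells and of macrophages and osteoclasts. Granulocyte precursor markers rose over 2-fold in 12 of 13 cases, erythroid precursor markers in 11 of 15, B cell precursor markers in 10 of 12, T cell markers in 5 of 6, and macrophage and osteoclast markers in 6 of 10, and none of these lists held a gene that fell over 2-fold. Over all genes tested the shares were 20.4% higher and 9.68% lower. The count of T cell markers was 2 without WT sample 2, and 3 without WT sample 4, WT sample 5 or Mmp13-/- sample 6, with the GC correction or with background subtraction. With at least 10 counts required in every sample, which leaves fewer genes to test, 6 B cell and 1 T cell marker were called. The summed level of erythroid precursor markers was 1000 to 1562 CPM in WT and 2333 to 4426 CPM in Mmp13-/-, and that of granulocyte precursor markers was 141 to 301 CPM in WT and 486 to 1105 CPM. B cell precursor markers summed to 62.6 to 73.7 CPM in WT and 96.0 to 132 CPM in Mmp13-/-. In the erythroid and granulocyte sums, as in the 35 genes, WT sample 5 was the highest WT sample and Mmp13-/- sample 6 the lowest knockout sample. In the B cell sums WT sample 5 was instead the lowest WT sample, at 62.6 CPM, and in the T cell sums Mmp13-/- sample 6 was the highest knockout sample, at 14.5 CPM against 12.9 and 13.6. Each part of this order was also seen in other lists. Mmp13-/- sample 6 was lowest of the knockout samples in the skeletal muscle, dental epithelium, endothelial, macrophage and B cell sums, though not in the odontoblast and pulp mesenchyme sums. WT sample 5 was highest of the WT samples in the pulp mesenchyme and T cell sums. No erythroid or granulocyte marker was at 0 in any sample, and Dntt of the B cell list and Cd3d of the T cell list were at 0 in at least 1 sample.

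Lists of resident cell and muscle markers are read against the same shares of all genes, 20.4% higher and 9.68% lower. Pulp mesenchyme markers rose in 0 of 10 cases and fell in 2, dental epithelium markers rose in 0 of 11 and fell in 3 (3 rose without WT sample 2 and 1 without Mmp13-/- sample 6), endothelial markers rose in 1 of 8, and odontoblast markers rose in 5 of 14 and fell in 3 (3 rose without WT sample 5). With the GC correction, under which 15.6% of all genes rose and 3.18% fell, dental epithelium markers rose in 2 cases and fell in 0 (median 0.41 against -0.18 as counted), pulp mesenchyme markers rose in 1 and fell in 1, endothelial markers rose in 0, and odontoblast markers rose in 3 and fell in 2. Skeletal muscle markers rose in 0 of 10 and fell in 8 (5 with the GC correction and 3 with both corrections), with sums of 54471 to 63154 CPM in WT and 9989 to 23430 CPM in Mmp13-/-. Pulp mesenchyme markers summed to 15500 to 23901 CPM in WT and 6672 to 8971 CPM in Mmp13-/-. Odontoblast markers summed to 56045 to 62754 CPM in WT and 17961 to 23689 CPM in Mmp13-/-, and their median log2 fold change was -0.21. Endothelial markers fell over 2-fold in 0 cases, but 5 of 8 were lower at any fold, where 24.3% of all genes were (median -0.55). With the GC correction 1 was lower at any fold (median 0.03). Endothelial sums were 338 to 383 CPM in WT and 218 to 307 CPM in Mmp13-/-. These shifts in cell type markers and the rise of the mitosis and kinetochore genes occurred in the same samples, and the part of any cell type in the rise was not tested.

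**Figure D5:**
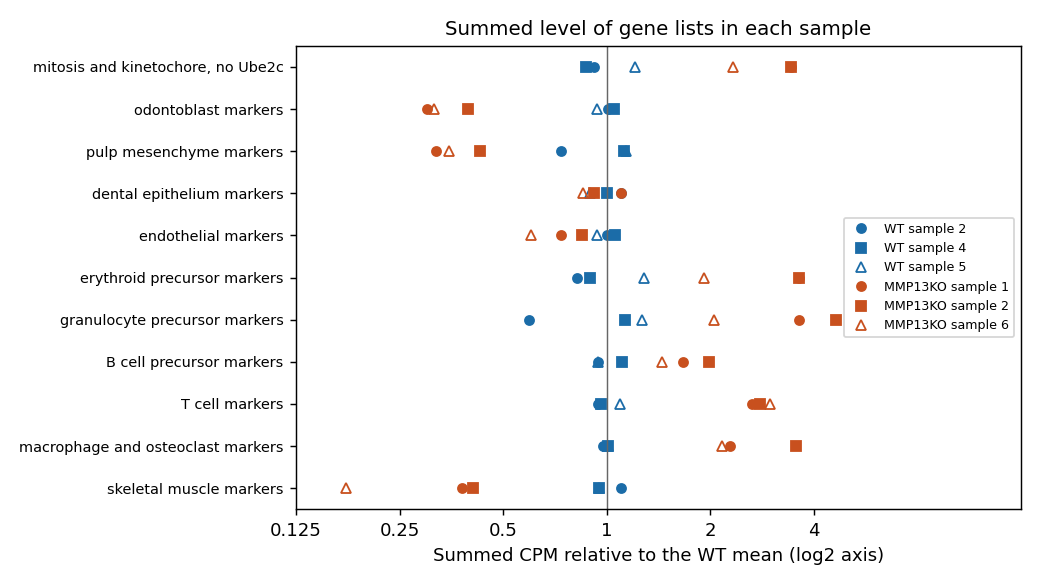
Summed CPM of the mitosis and kinetochore genes without Ube2c and of 10 cell type marker lists in each sample, relative to the mean of the 3 WT samples (log2 axis), with 1 point per sample. Mitosis genes and the erythroid, granulocyte, B cell, T cell and macrophage lists lie to the right of 1 in all Mmp13-/- samples, while the odontoblast, pulp mesenchyme, endothelial and skeletal muscle sums lie to the left.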

How the data were processed

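Paired-end RNA sequencing was applied to dental pulp taken at 3 months from WT mice (3 samples) and Mmp13-/- mice (3 samples). Estimated counts per gene were deposited by the authors, who made them in Strand NGS from aligned reads. A deposited set of log2 values holds the same counts after the authors' scaling by size factors and centring on each gene's median. The submitters' processing notes name DESeq and the build mm10, and the aligner settings are not given in the sources used here. All sample columns were used.

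Counts, of which 90.8% of the values above 0 were not whole, were rounded, and edgeR 4.0.16 was run under R 4.3.3 (quasi-likelihood test, TMM factors, filter on low counts by genotype, Benjamini-Hochberg adjustment). Genotypes came from the sample labels, and replicates were treated as separate animals. SE is the size of the log2 fold change divided by the root of F. Exon length, GC content and positions were taken from GENCODE M21 (GRCm38), matched by identifier for 99.8% of genes. Background was the mean count per kilobase in 1451 genes of odorant and vomeronasal receptors. The GC correction was a loess curve per sample (span 0.4). Only genes whose log2 CPM averaged over 3 shaped the curve, and it was applied to the less abundant genes too.

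The 35 genes and all lists were chosen with earlier results of these data known. All 35 genes were named by rule, with Mmp13, the called gene with the largest rise and the largest fall of each other cell cycle list, and Foxm1, Mybl2, Ccnd1, Cdkn1a and Pcna. Ccne2, Cdkn2b, Tnnc2 and overlapping genes were named after their values were seen. Alternatives were RLE, upper-quartile and no factors, factors without the 10 most abundant genes of each sample, no filter, a minimum of 10 counts in every sample, DESeq2 1.42.0, limma 3.58.1 with the deposited log2 values, leaving out each sample, GC correction and background subtraction. The last 2 together, and other factors for the count of genes without overlap, were added after seeing the data. Scripts were tested on simulated data. The depth behind a value is its count, and a count of 0 allows up to 3 counts, for counting error only. One gene that the naming rule picked is not reported here.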

Additional observations from a re-analysis of the deposited data

How the results depend on the processing

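The number of mitosis and kinetochore genes called higher stayed between 23 and 29 of 35 under all alternatives, against 24 as reported, and their median log2 fold change moved beyond the spread between samples with the GC correction (1.23) and with background subtraction and GC correction together (1.20), against 1.52. Leaving out each sample in turn gave 23 to 27 called genes, medians of 1.35 to 1.69, and 0 to 1 genes called lower, the 1 being Ube2c without Mmp13-/- sample 1 or 2. Over all genes the 7381 called of 24534 tested became 4666 of 19564 with at least 10 counts in every sample and 14325 of 49715 with no filter. They became 4602 of 24492 with the GC correction and 3426 of 22814 with both corrections. With a sample left out, 7146 to 8751 were called, where 24934 to 26956 genes were tested. The share of called genes that were higher, 67.8%, was 81.4% with upper-quartile factors, 77.2% with no factors and 83.1% with the GC correction, and those settings shifted the median over all genes by 0.21, 0.11 and 0.10. Incenp (log2 fold change 0.08) was -0.024 with no filter, -0.019 with limma, -0.011 with factors that left out the most abundant genes, and -0.11 to 0.28 with a sample left out. Ccnd1 (-0.21) was 0.30 with the GC correction and 0.32 with both corrections. The cause was not tested. Of 595 repeated values of the members, 547 kept direction and side of the threshold. Cenpa and Racgap1 did not pass without WT sample 2 or 4 or without Mmp13-/- sample 1 or 2. No paired analysis was possible because the genotypes share the replicate number 2 and no other. With 3 samples a genotype, low WT counts of Bub1, Ttk and Ndc80 limit the precision of their changes, and the counts cannot separate dividing cells from transcript content.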
